A study of Mus musculus with 11 samples.

Results

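Transcripts of 41 genes of the hypoxia response and of glycolysis were followed in 11 mouse high-grade gliomas, 9 with knockdown of Ezh2 and 2 controls. The genes had been listed by symbol beforehand, with earlier results of these data known, and the collagen prolyl hydroxylase gene P4ha2 stood for the list as its marker. All 41 symbols were found among the 27687 genes of the count table. Of these, 22 are glycolytic (glucose transporters, glycolytic enzymes and their regulators, lactate handling) and 19 are other genes of the hypoxia response, and all 41 passed the filter on low counts, which kept 16241 genes. The tumours came from neural stem cells of the subventricular zone of 7-day-old mice that carried conditional alleles of p53, Ink4a/Arf, Krasv12 and LucR together. They were cultured with 20 ng/ml each of EGF and bFGF and infected repeatedly with a lentivirus with Cre recombinase under the CMV promoter. Cells of both groups then received the hairpin construct FH1-tUTG-shEzh2, which doxycycline switches on, were sorted for GFP and were injected into the brains of NOD-SCID mice, an immunodeficient strain without functional T and B cells. The 9 knockdown tumours are labelled as having prolonged Ezh2 knockdown and the 2 controls as having none. The labels give doxycycline at 2 mg/ml with 1% sucrose for every tumour, whereas the design text speaks of mice with and without the drug, so doxycycline and hairpin cannot be told apart as sources of a difference. Whether each tumour had a cell preparation of its own is not stated, and the p-values cover the spread among these tumours alone, which may be technical.

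Cells short of oxygen stabilise the alpha subunits of the hypoxia-inducible factors (HIFs), which pair with the beta subunit ARNT and bind DNA at hypoxia response elements. When oxygen is plentiful, the EGLN prolyl hydroxylases mark the alpha subunits for destruction by the VHL ubiquitin ligase. HIF targets include most genes of glycolysis, which turns glucose into pyruvate and lactate without oxygen, as well as collagen hydroxylases, mitophagy receptors and carbonic anhydrases, and in high-grade glioma they are known for high expression around necrotic zones.

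The promoters of 4 members are shown because 3 of these genes lie among those with large differences between the groups and hold several matches to the core of the hypoxia response element, while the promoter of Gpi1, which also fell, holds 0. Each runs 5′ to 3′ on the strand of its gene, from 250 bases before the annotated start to 50 after it (RefSeq, GRCm38.p6), and capitals mark ACGTG or GCGTG on either strand (CACGT or CACGC as printed). The windows are chr11:54100674-54100973 (plus strand) for P4ha2, chr14:45318523-45318822 (minus strand) for Ero1l, listed there as Ero1a, chr7:138909457-138909756 (minus strand) for Bnip3 and chr7:34230287-34230586 (minus strand) for Gpi1.
P4ha2: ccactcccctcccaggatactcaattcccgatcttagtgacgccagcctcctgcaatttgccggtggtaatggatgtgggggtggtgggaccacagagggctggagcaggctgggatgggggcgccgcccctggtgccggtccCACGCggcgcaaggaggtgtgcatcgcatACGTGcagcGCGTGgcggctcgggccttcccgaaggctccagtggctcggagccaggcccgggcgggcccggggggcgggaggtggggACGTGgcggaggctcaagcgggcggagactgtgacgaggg
Ero1l: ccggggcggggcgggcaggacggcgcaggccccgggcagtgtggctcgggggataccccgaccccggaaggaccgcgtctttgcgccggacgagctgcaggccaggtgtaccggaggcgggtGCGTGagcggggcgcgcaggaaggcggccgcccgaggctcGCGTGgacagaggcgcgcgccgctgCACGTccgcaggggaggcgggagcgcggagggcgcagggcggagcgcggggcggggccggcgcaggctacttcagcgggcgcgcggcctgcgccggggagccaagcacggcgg
Bnip3: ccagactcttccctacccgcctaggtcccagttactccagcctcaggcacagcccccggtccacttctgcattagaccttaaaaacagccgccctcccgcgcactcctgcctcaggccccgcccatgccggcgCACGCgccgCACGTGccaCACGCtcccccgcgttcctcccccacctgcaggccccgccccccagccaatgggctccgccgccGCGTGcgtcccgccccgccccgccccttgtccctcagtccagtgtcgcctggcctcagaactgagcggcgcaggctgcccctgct
Gpi1: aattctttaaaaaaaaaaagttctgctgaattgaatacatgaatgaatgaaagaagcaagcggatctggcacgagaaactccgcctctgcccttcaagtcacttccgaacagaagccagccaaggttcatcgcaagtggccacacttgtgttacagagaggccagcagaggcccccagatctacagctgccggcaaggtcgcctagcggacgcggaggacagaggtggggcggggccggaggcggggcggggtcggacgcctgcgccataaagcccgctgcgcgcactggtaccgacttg
P4ha2 held 4 matches, Ero1l 3 and Bnip3 5, of which a pair overlaps in the palindrome CACGTG. Among the 36 members with a RefSeq window, 32 (88.9%) held at least 1 match in a window, against 12628 of 27025 symbols (46.7%) in the whole table of promoters. Members that fell in the knockdown held one in 21 of 24 cases (87.5%) and members that passed no test in 11 of 12 (91.7%), so a match did not separate them. Glycolytic members held one in 18 of 21 cases and the others in 14 of 15. Both motifs contain the dinucleotide CG, of which member windows held a median of 21 and all windows a median of 7. A match is a string of letters and not a bound site.

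The libraries held between 11209233 and 18638382 counts, and the share of mitochondrially encoded genes lay between 3.43% and 13.5% in knockdown tumours and was 4.28% in control 1 and 5.45% in control 2. Levels are given as CPM, the count of a gene relative to the total of its library, on TMM-scaled libraries, differences as log2 fold changes of knockdown over control ± SE, and adjusted p-values come from edgeR's quasi-likelihood test with Benjamini-Hochberg adjustment over all 16241 genes, with a threshold of 0.05. Ezh2 itself had 7.27 CPM at the lowest, 14.6 CPM at the median and 30.4 CPM at the highest in knockdown tumours, against 45.3 CPM in control 1 and 52.7 CPM in control 2. The groups did not overlap. The difference was -1.59 ± 0.44 on the log2 scale (adjusted p = 0.023), with an exact two-sided permutation p of 0.018, the smallest that 55 splits allow. Of the 10 glioma and neural stem cell markers, Vim, Cd44, Nes and Sox2 were detected in every tumour. The list summed to between 2853 and 4232 CPM in knockdown tumours, against 8018 and 6949 CPM in controls 1 and 2.

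Of the 41 members, 26 fell in the knockdown and 0 rose, where 13.0% of all genes tested fell and 10.3% rose. At an unadjusted p under 0.05, 29 were lower and 1, Arnt, was higher, and DESeq2 and limma-voom also called 0 higher. The median log2 fold change was -1.02 over the members and 0.07 over all genes tested. The summary was close for glycolytic and other members, which were not tested against each other. Among the 22 glycolytic genes 15 fell, with a median of -1.06, and among the 19 others 11 fell, with a median of -1.0. In 14 members every knockdown tumour lay below both controls, a pattern that 13.8% of all genes showed. In bulk tumours, fewer cells that express a gene and less RNA per cell cannot be told apart. The count rests on control 1: without it 1 member, P4ha2, fell (5.33% of all genes then fell), while without control 2, 21 members fell (7.05% of all genes) and Pfkm, Eno1, Ldha, Bnip3 and Adm did not pass. With 1 control left, the spread comes from the knockdown tumours alone and the lone control is assumed to vary like them. Of the 26 members, 11 moved by more than 1.5-fold without control 1 and 6 without control 2, and their values are given with each gene.

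**Figure D1:**
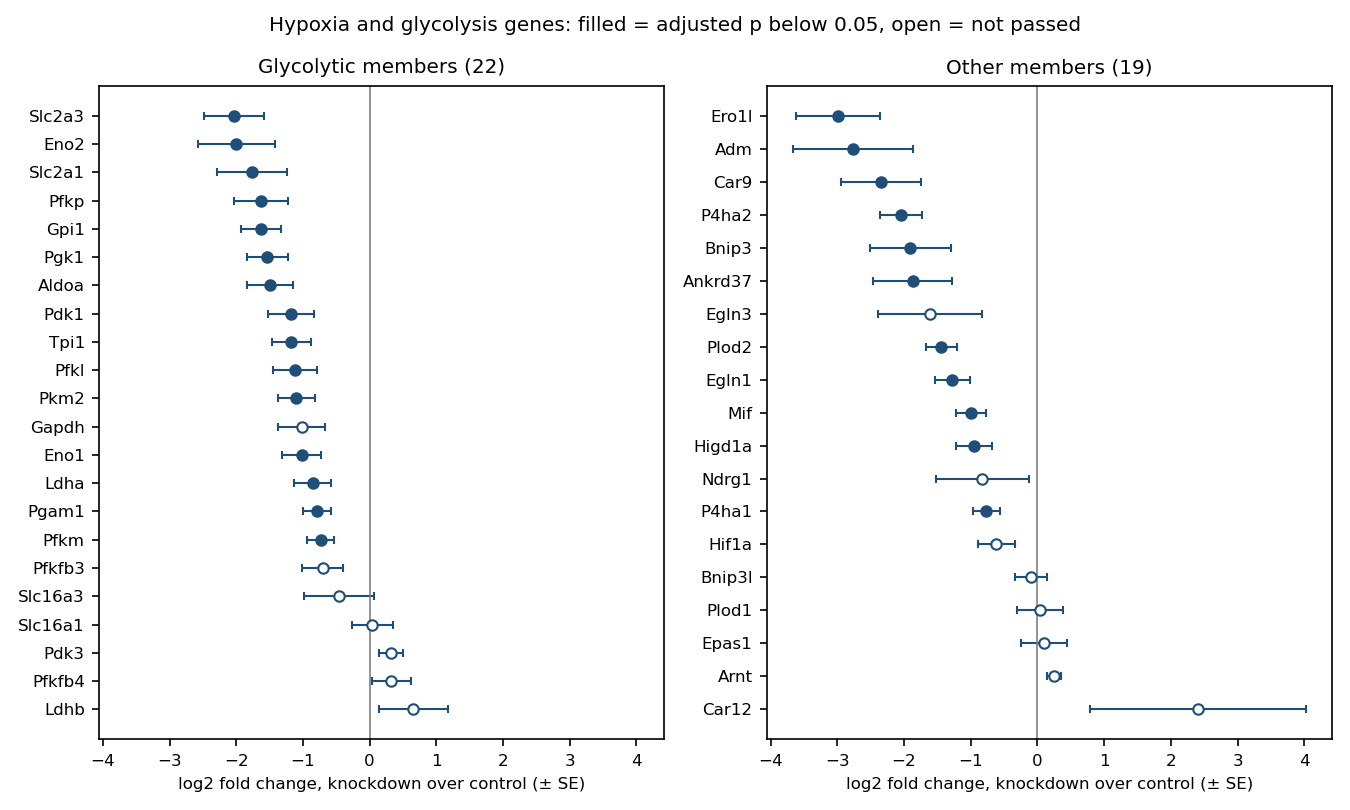
Log2 fold change of knockdown over control with its SE (x axis) for each member (y axis), glycolytic genes on one side and the other members on the other; filled points passed an adjusted p of 0.05. Filled points all lie below 0, from -0.74 for Pfkm to -2.99 for Ero1l, and Car12 has the longest error bar.

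Both glucose transporters, which bring glucose into the cell, fell. Slc2a3 (GLUT3; ENSMUSG00000003153, mm9 chromosome 6, 122677827 to 122751658) had 29.4 CPM at the lowest, 45.3 CPM at the median and 95.9 CPM at the highest in knockdown tumours, against 342 CPM in control 1 and 89.3 CPM in control 2. This gave -2.03 ± 0.45 as log2 fold change (adjusted p = 0.0083). Slc2a1 (GLUT1) lay between 49.1 and 274 CPM in knockdown tumours with a median of 95.7 CPM, against 549 and 234 CPM in controls 1 and 2, a log2 fold change of -1.76 ± 0.53 (adjusted p = 0.031). For both transporters control 1 stood above every knockdown tumour, while control 2 lay below knockdown 7. Without control 1 the log2 fold change was -0.76 for Slc2a3 and -1.02 for Slc2a1, and without control 2 it was -2.70 for Slc2a3.

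The 12 enzymes that carry glucose 6-phosphate to pyruvate all had negative log2 fold changes, and 11 of them fell. Gpi1, the isomerase that makes fructose 6-phosphate (ENSMUSG00000036427, mm9 chromosome 7, 34987141 to 35015308), had 194, 265 and 484 CPM as the lowest, median and highest of the knockdown tumours, against 1169 CPM in control 1 and 563 CPM in control 2. Its difference was -1.62 ± 0.30 on the log2 scale (adjusted p = 0.0032), and no knockdown tumour reached either control. Without control 1 it was -1.0. Pgk1, the phosphoglycerate kinase that makes the first ATP of the pathway (mm9 chromosome X, 103382439 to 103399038), had 97.5, 146 and 241 CPM in the same order, against 578 and 339 CPM in controls 1 and 2. This gap gave a log2 fold change of -1.53 ± 0.30 (adjusted p = 0.0048), again without overlap.

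The aldolase gene Aldoa, whose product splits fructose 1,6-bisphosphate (mm9 chromosome 7, 133938748 to 133944265), ranged from 289.8 CPM through a median of 505 CPM to 1010.0 CPM in knockdown tumours, against 1912 and 1141 CPM in controls 1 and 2 (log2 fold change -1.49 ± 0.34, adjusted p = 0.010). Tpi1, the triose phosphate isomerase (mm9 chromosome 6, 124760604 to 124764314), had 238, 357 and 669 CPM as lowest, median and highest, against 1071 and 675 CPM (log2 fold change -1.18 ± 0.29, adjusted p = 0.015). For both genes the lowest knockdown tumour was number 1 and the highest number 7, and knockdown 7 came close to control 2 for Tpi1. Eno1, an enolase (mm9 chromosome 4, 149610830 to 149622988), had 89.9, 142 and 232 CPM, against 317 and 275 CPM in controls 1 and 2 (log2 fold change -1.02 ± 0.29, adjusted p = 0.028). Pkm2, the pyruvate kinase of the last step (mm9 chromosome 9, 59504383 to 59527182), had 1083, 1700 and 2473 CPM, against 4607 and 2713 CPM (log2 fold change -1.10 ± 0.28, adjusted p = 0.017). Neither gene overlapped between the groups.

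The phosphofructokinases, which commit sugar to glycolysis, moved with different shapes. Pfkm, the muscle isoform (mm9 chromosome 15, 97923020 to 97962878), had 52.9, 72.6 and 103 CPM as lowest, median and highest of the knockdown tumours, against nearly equal levels of 126.5 CPM in control 1 and 129.6 CPM in control 2. It fell by 0.74 on the log2 scale (SE 0.20, adjusted p = 0.020) without overlap. Pfkp, the platelet isoform, fell by 1.63 (adjusted p = 0.015) and Pfkl, the liver isoform, fell by 1.12 (adjusted p = 0.030). For Pfkp the highest knockdown tumour had 142 CPM and lay between control 1 at 341 CPM and control 2 at 104 CPM. Its log2 fold change was -0.54 without control 1 and -2.25 without control 2. For Pfkl too the groups overlapped, with control 2 at 227 CPM and knockdown 7 at 245 CPM. Pfkfb3 and Pfkfb4, which set the level of the activator of phosphofructokinase, had adjusted p of 0.12 and 0.44. Pfkfb3 ranged from 27.7 to 65.3 CPM in knockdown tumours, against 41.2 CPM in control 1 and 87.9 CPM in control 2.

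Of the remaining enzymes Eno2, the neuronal enolase, fell by 2.00 on the log2 scale (adjusted p = 0.027) and Pgam1, the phosphoglycerate mutase, fell by 0.79 (adjusted p = 0.022). Control 2 lay within the knockdown range for both, and Eno2 had a log2 fold change of -0.71 without control 1 and -2.67 without control 2. Gapdh had 6.34, 9.27 and 17.2 CPM as lowest, median and highest of the knockdown tumours, against 25.4 and 17.7 CPM in controls 1 and 2, and did not pass (log2 fold change -1.02 ± 0.35, adjusted p = 0.052) although the groups did not overlap. Only 74 to 330 reads per library were assigned to Gapdh, a gene with many near-identical pseudogenes between which reads could be split, so its level is uncertain.

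At the branch between lactate and mitochondria, Ldha, the lactate dehydrogenase subunit induced by HIF, fell by 0.85 on the log2 scale (adjusted p = 0.045), while Ldhb, the other subunit, had a log2 fold change of 0.65 ± 0.52 (adjusted p = 0.38). Ldhb had 78.7, 114 and 248 CPM in knockdown tumours, against 29.1 CPM in control 1 and 128 CPM in control 2. Control 1 was thus the lowest of all 11 tumours for Ldhb, whereas for Ldha it was the highest with 1638 CPM. Pdk1, a kinase that closes the entry of pyruvate into mitochondria, fell by 1.18 (adjusted p = 0.029), and its paralog Pdk3 did not pass (log2 fold change 0.33, adjusted p = 0.21). Without control 1 Pdk1 had a log2 fold change of -0.57. Control 2 lay within the knockdown range for Ldha and Pdk1. The lactate transporters Slc16a3 (MCT4) and Slc16a1 (MCT1) had log2 fold changes of -0.46 ± 0.53 and 0.04 ± 0.31 (adjusted p = 0.56 and 0.94).

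Among members outside glycolysis, the collagen hydroxylase genes P4ha2 and Plod2 had the smallest p-values, and 3 of the 4 collagen hydroxylases fell. P4ha2, which hydroxylates prolines of procollagen (ENSMUSG00000018906, mm9 chromosome 11, 53913597 to 53945167), had 18.8, 31.2 and 54.6 CPM as lowest, median and highest of the knockdown tumours, against 161 CPM in control 1 and 98.8 CPM in control 2. P4ha2 thus differed by -2.04 ± 0.31 on the log2 scale (adjusted p = 0.0012), with -1.65 when control 1 was left out and -2.36 when control 2 was left out (adjusted p = 0.035 and 0.0043, with the spread taken from the knockdown tumours alone). Plod2, the lysyl hydroxylase of collagen telopeptides (mm9 chromosome 9, 92437061 to 92503266), had 104, 134 and 182 CPM, against 511 and 233 CPM in controls 1 and 2 (log2 fold change -1.44 ± 0.23, adjusted p = 0.0016), with -0.77 when control 1 was left out. P4ha1, the other prolyl hydroxylase subunit here (mm9 chromosome 10, 58786044 to 58836052), had 155, 205 and 271 CPM, against 400 and 297 CPM (log2 fold change -0.76 ± 0.20, adjusted p = 0.020). The 3 genes showed no overlap between the groups, and the fourth, Plod1, overlapped and did not pass (log2 fold change 0.04 ± 0.34, adjusted p = 0.95).

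The oxygen sensors differed in their spread among knockdown tumours. Egln1 (PHD2), the main HIF prolyl hydroxylase (mm9 chromosome 8, 127432496 to 127473154), had 59.8, 75.9 and 132 CPM as lowest, median and highest of the knockdown tumours, against 257 CPM in control 1 and 136 CPM in control 2. It fell by 1.28 on the log2 scale (SE 0.26, adjusted p = 0.0057), and knockdown 7 came close to control 2. Egln3 (PHD3), itself a strong HIF target, spanned 13.9 to 212 CPM in knockdown tumours with a median of 35.9 CPM, against 235 and 119 CPM in controls 1 and 2. Egln3 did not pass (log2 fold change -1.61 ± 0.78, adjusted p = 0.16), but did so without knockdown 7. The HIF subunits did not pass: Hif1a had a log2 fold change of -0.61 ± 0.28 (adjusted p = 0.13), Epas1 (HIF-2 alpha) of 0.10 ± 0.34 (adjusted p = 0.86) and Arnt of 0.25 ± 0.11 (adjusted p = 0.12). HIF alpha is set mainly at the protein level, which was not measured.

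Car9, the tumour carbonic anhydrase used as a hypoxia marker (mm9 chromosome 4, 43519838 to 43526601), had 1.72, 4.73 and 18.1 CPM as lowest, median and highest of the knockdown tumours, against 44.5 CPM in control 1 and 22.7 CPM in control 2. It fell by 2.34 on the log2 scale (SE 0.60, adjusted p = 0.017) without overlap, and knockdown 9 was the highest of its group. Knockdown 9 was also the highest for the related Car12, at 140 CPM against 5.54 and 4.64 CPM in controls 1 and 2, and Car12 had a log2 fold change of 2.41 ± 1.62 (adjusted p = 0.30). Mif, a cytokine gene (mm9 chromosome 10, 75322098 to 75322995), had 53.8, 70.1 and 102 CPM in knockdown tumours, against 171 and 118 CPM in controls 1 and 2 (log2 fold change -1.0 ± 0.22, adjusted p = 0.0092).

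With both controls in the fit, the largest fold change among the members that fell was that of Ero1l, the oxidase that helps form disulphide bonds in the endoplasmic reticulum (ENSMUSG00000021831, mm9 chromosome 14, 45902879 to 45938237). It had 43.2, 72.3 and 295 CPM as lowest, median and highest of the knockdown tumours, against 1499 CPM in control 1 and 240 CPM in control 2. On the log2 scale the difference was -2.99 ± 0.63 (adjusted p = 0.0067), but control 2 lay within the knockdown range. Without control 1 it was -1.13, smaller in size than that of P4ha2 or Adm, and without control 2 it was -3.78. Adm, which encodes the vessel-dilating peptide adrenomedullin, showed the same order, with 3.21, 10.4 and 67.4 CPM in knockdown tumours, against 194 and 46.3 CPM in controls 1 and 2 (log2 fold change -2.77 ± 0.90, adjusted p = 0.044). Its log2 fold change was -1.39 without control 1, -3.46 without control 2 and -3.42 without knockdown 7. Bnip3, a receptor for the removal of mitochondria, fell by 1.90 on the log2 scale (adjusted p = 0.041), while its relative Bnip3l had a log2 fold change of -0.10 ± 0.24 (adjusted p = 0.78). Ankrd37, an ankyrin repeat gene, fell by 1.87 (adjusted p = 0.040) and Higd1a, a small mitochondrial protein gene, fell by 0.95 (adjusted p = 0.024). For these 3 genes that fell, Bnip3, Ankrd37 and Higd1a, control 2 lay within the knockdown range. Without control 1 the log2 fold change was -0.95 for Bnip3 and -0.82 for Ankrd37, and without control 2 it was -2.48 for Ankrd37. Ndrg1, a stress response gene, had 39.8, 82.0 and 407 CPM in knockdown tumours, against 279.7 and 143 CPM in controls 1 and 2, and did not pass (adjusted p = 0.41).

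**Figure D2:**
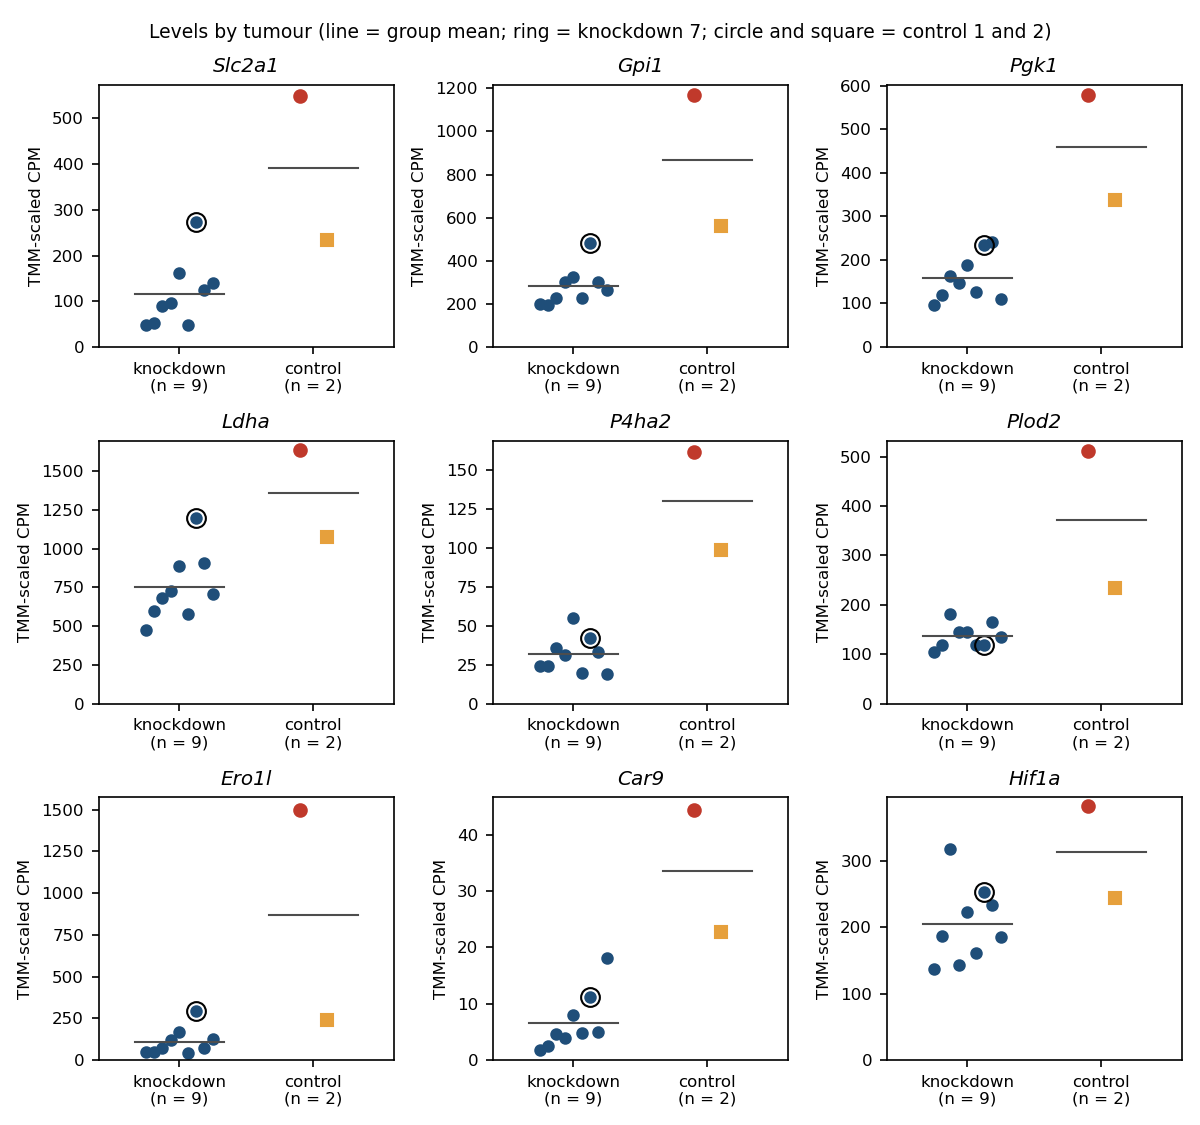
TMM-scaled CPM (y axis, starting at 0) of selected members in each tumour, knockdown (n = 9) left of control (n = 2), with a line at each group mean, a ring for knockdown 7, a circle for control 1 and a square for control 2. P4ha2 separates the groups, whereas for Ero1l control 1 stands at 1499 CPM and control 2, at 240 CPM, lies below knockdown 7 at 295 CPM.

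The 2 controls, which carry the same construct and label, differed from each other across the list. Control 1 was above control 2 by more than 1.5-fold in 26 of 41 members, where 13.2% of all genes were, and below it by more than 1.5-fold in 2 members, Pfkfb3 and Ldhb, where 15.3% of all genes were. With 1 library on each side this difference has no replicate check. The median ratio of control 1 over control 2 was 1.68 over the members and 0.999 over all genes tested. It was 1.66 for glycolytic members, with 14 of 22 past 1.5-fold above, and 1.68 for the others, with 12 of 19. The ratio was 6.24 for Ero1l, 4.19 for Adm, 3.89 for Eno2 and 3.83 for Slc2a3, and it was close to 1 for Pfkm at 0.976. Control 1 stood above every knockdown tumour in 29 members (23.2% of all genes), among them all 26 that fell. Control 2 did so in 15 members (20.4% of all genes), of which 9 are glycolytic and 6 are not, and it lay within the knockdown range in 24.

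**Figure D3:**
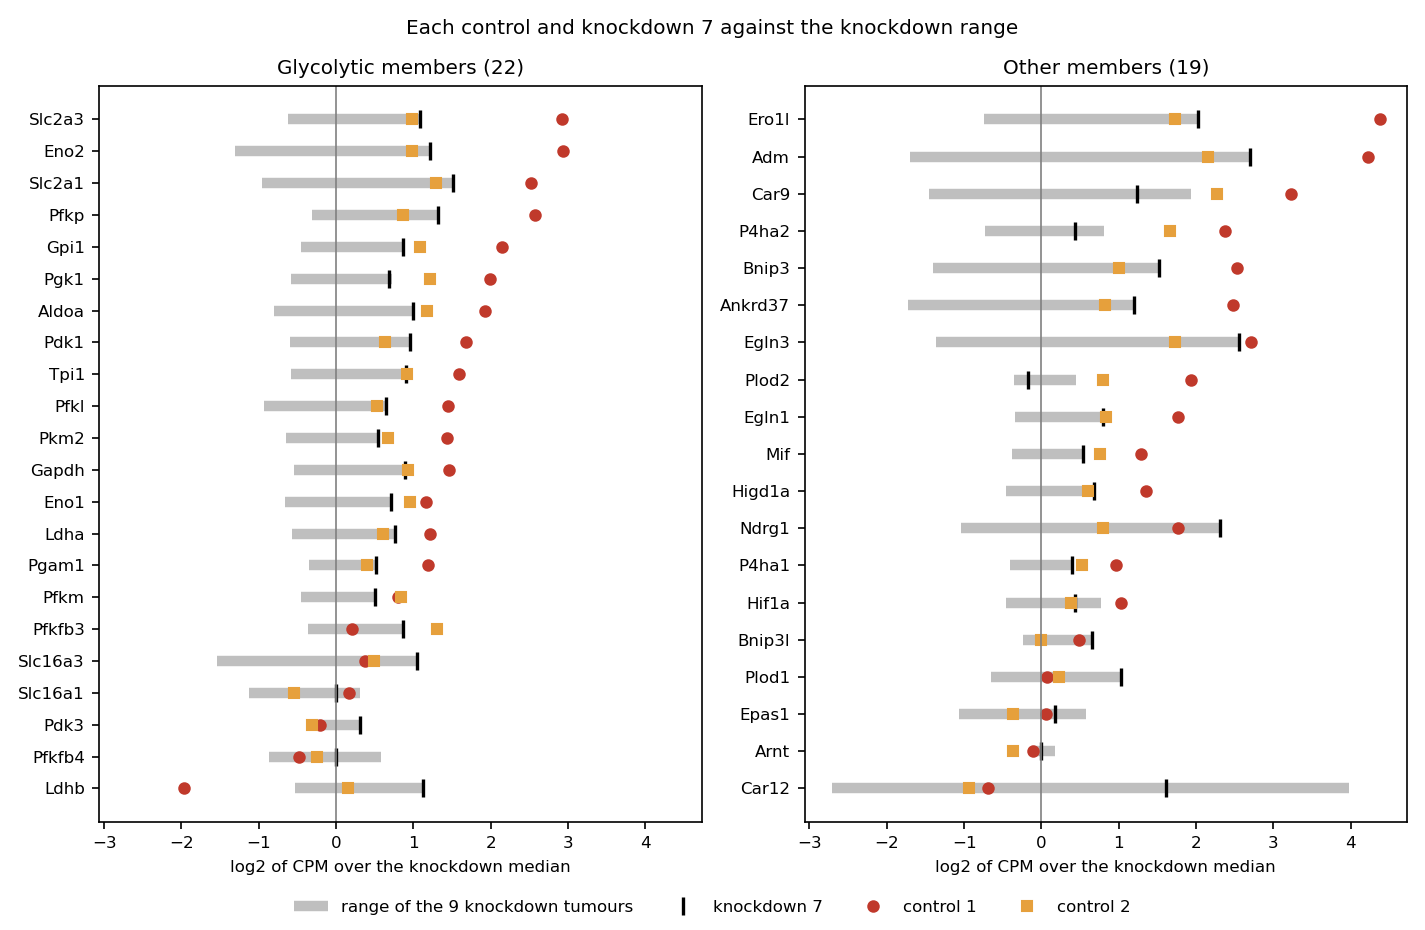
Log2 of CPM over the knockdown median (x axis) for each member (y axis), with the range of the 9 knockdown tumours as a bar and knockdown 7, control 1 and control 2 as points, glycolytic and other members in separate panels. Control 1 lies above the bar in 29 members and control 2 above it in 15.

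The knockdown tumours also differed among themselves in a shared order. Knockdown 7 was the highest of the 9 in 31 of 41 members, where it was the highest in 16.6% of all genes, and in 22 of the 26 that fell. This held for 19 of 22 glycolytic members and 12 of 19 others. Knockdown 7 exceeded control 2 in 26 members (50.1% of all genes), 13 in each class, among them Slc2a1, Ldha, Bnip3, Adm and Ero1l. At the other end, knockdown 1, 2 or 6 was the lowest in 31 members, where 22.6% of all genes had their lowest knockdown level in one of these 3. These tumours had the smallest libraries, of 12745249, 12442313 and 11209233 counts, and the largest mitochondrial shares, of 12.1%, 13.5% and 12.2%, while knockdown 7 had 4.74%. The part of library size and mitochondrial share in the order was not tested. With mitochondrially encoded genes left out of the fit 27 members fell (13.4% of all genes then fell), which does not bear on that order. Averaged as log2(CPM + 1), glycolytic members ranged from 6.19 in knockdown 1 to 7.44 in knockdown 7, against 7.87 in control 1 and 7.32 in control 2. The other members ranged from 5.09 in knockdown 6 to 6.71 in knockdown 7, against 7.32 and 6.43 in controls 1 and 2, and knockdown 7 exceeded control 2 in both classes. Without knockdown 7, 30 members fell (15% of all genes then fell), and the 4 added were Gapdh, Pfkfb3, Egln3 and Ndrg1.

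**Figure D4:**
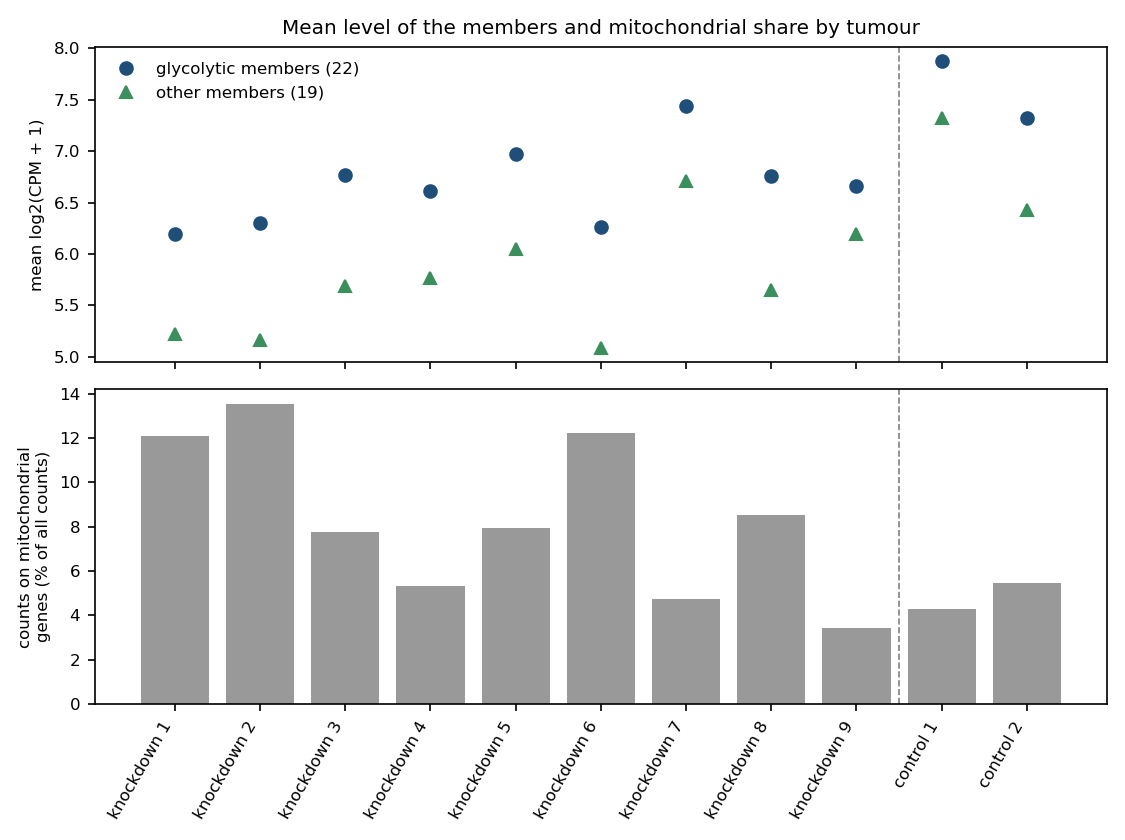
Mean log2(CPM + 1) of glycolytic and other members (upper panel, y axis) and percent of counts on mitochondrially encoded genes (lower panel) in each tumour, knockdown 1 to 9 left of the controls. Knockdown 7, at 7.44 and 6.71, exceeds control 2, at 7.32 and 6.43, in both classes.

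The same pathways hold further genes outside the 41. Over all genes tested 13.0% fell and 10.3% rose, and among HIF regulators and citric acid cycle enzymes neither direction exceeded these shares. Of 24 tested genes of glycolysis and pyruvate handling, 6 fell and 2 rose, and the median log2 fold change over the list was -0.22. Those with the smallest p were Taldo1, a transaldolase of the pentose phosphate pathway (-1.57 ± 0.15, adjusted p = 0.00011), Hk3, a hexokinase (-1.44 ± 0.24, adjusted p = 0.0018), and Eno3, the muscle enolase (-1.48 ± 0.37, adjusted p = 0.014). Eno3 had 10.4 to 18.1 CPM in knockdown tumours, against 14.4 CPM in control 1 and 73.5 CPM in control 2. Its log2 fold change was 0.13 without control 2 and -2.22 without control 1. The 2 that rose were Pfkfb1, a regulator of phosphofructokinase (1.35 ± 0.26, adjusted p = 0.0045), and Slc2a4, the insulin-responsive glucose transporter (1.72 ± 0.57, adjusted p = 0.046). Slc2a4 had 0.863 to 4.18 CPM in knockdown tumours, against 0.692 and 0.626 CPM in controls 1 and 2. It passed the filter on low counts through the knockdown tumours alone, so only a rise could be called. With no filter, and with limma-voom, 1 gene of this list rose. Of 37 other hypoxia targets 9 fell and 1 rose, with a median of -0.48. Named by the same rule, the chemokine receptor gene Cxcr4 fell by 1.79 (adjusted p = 0.0027), Stc2, a secreted glycoprotein gene, fell by 2.52 (adjusted p = 0.0031), Lox, a collagen cross-linking oxidase gene, fell by 2.90 (adjusted p = 0.0071) and Zfp36l1, an mRNA decay factor gene, rose by 0.99 (adjusted p = 0.028). Without control 1, 0 of these 37 passed, and the log2 fold change was then -2.83 for Lox (adjusted p = 0.058), -1.59 for Stc2 and -0.89 for Cxcr4. Of 16 other regulators of HIF 2 fell, Cited2 and Arnt2 (adjusted p = 0.046 and 0.049), and 1 rose, Hif1an, the asparagine hydroxylase that restrains HIF (0.50 ± 0.14, adjusted p = 0.025). With no filter, or without any 1 of knockdown 1 to 6, 0 of these regulators fell, and with limma-voom 1 fell. Of 16 enzymes of the mitochondrial citric acid cycle 1 fell, the citrate synthase gene Cs (-0.41 ± 0.12, adjusted p = 0.032), and 1 rose, Suclg2, a succinyl-CoA ligase subunit (0.55 ± 0.17, adjusted p = 0.033).

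Markers of several host cell types also differed between the groups, beside 13.0% of all genes tested that fell and 10.3% that rose. Of 14 macrophage and microglia markers 10 fell, and their summed level ran from 482 to 1245 CPM in knockdown tumours, against 1151 CPM in control 1 and 2315 CPM in control 2. All 8 tested neutrophil markers fell, with sums of 2.45 to 9.43 CPM in knockdown tumours, against 210 CPM in control 1 and 62.9 CPM in control 2. Of these, Ngp, Mpo, Elane and Retnlg had at most 0.485 CPM in any knockdown tumour. They passed the filter on low counts through the controls alone, so only a fall could be called for them. Control 2 was thus the higher control for the macrophage list and control 1 for the neutrophil list. Control 1 was above control 2 in 35 of the 41 members, against 8101 of 16241 genes tested. With only 2 controls a list can lean in only 2 ways, and a link between a list and the members was not tested. The neutrophil gene Ly6g had 0 reads in the knockdown tumours, against 3 and 2 reads in controls 1 and 2, too few to compare. Of 9 endothelial markers 1 fell and 2 rose, with sums of 151 to 360 CPM in knockdown tumours, against 449 and 268 CPM in controls 1 and 2. Flt1, singled out after its values were seen, made up much of the control sums, with 31.5 to 54.6 CPM in knockdown tumours, against 313 and 125 CPM in controls 1 and 2. Without Flt1 the sums were 120 to 317 CPM in knockdown tumours, against 136 and 143 CPM, and 8 of 9 knockdown tumours lay above both controls. The median log2 fold change of the endothelial list was 0.70. Of the 10 glioma and neural stem cell markers 6 fell and 1, Pdgfra, rose. Of 9 pericyte and fibroblast markers 1 rose, of 8 neuron markers 1 fell and 2 rose, of 6 markers of myelinating oligodendrocytes 3 rose, and of 4 tested erythroid genes 0 passed in edgeR (1 was higher at an unadjusted p under 0.05). Myelinating oligodendrocyte markers summed to between 261 and 434 CPM in knockdown tumours, against 130 and 103 CPM in controls 1 and 2. The part of these cell types in the members' levels was not tested. Xist was at 41.4 CPM or more in 5 knockdown tumours and both controls and at 1.10 CPM or less in knockdown 1, 7, 8 and 9. Within the 7 libraries with Xist above 5 CPM, a comparison chosen after the data were seen, 28 members fell (15.8% of all genes).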

How the data were processed

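RNA of 11 tumours (9 knockdown, 2 control, grouped by sample title) was sequenced on an Illumina HiSeq2000 from TruSeq libraries, per the labels' protocols. The authors deposited 1 table of whole-number read counts per Ensembl gene, with symbols and mm9 coordinates. TopHat 1.4.0, HTSeq and mm9 are named in the submitters' processing notes. For their settings, and for the use of strand in counting, nothing is given in the sources used here. Another gene model overlaps 11 of the 41 members, among them Pfkp, Pfkm, Tpi1, Slc16a3 and Ankrd37 with a coding gene, so that reads could be shared. Library totals lay between 11209233 and 18638382 counts, and a count of 3 corresponded to between 0.162 and 0.273 CPM.

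Knockdown was compared with control by edgeR 4.0.16 under R 4.3.3 (filterByExpr, TMM, quasi-likelihood F-test without covariates, Benjamini-Hochberg adjustment over 16241 genes, threshold 0.05). The SE is the size of the log2 fold change divided by the square root of F, and CPM are TMM-scaled. The controls were set against each other by the ratio of CPM, with a prior count of 2 and 1.5-fold as the mark, and Ezh2 was also tested on log2(CPM + 1). The code was tested on simulated data. Alternatives were RLE factors, no filter, DESeq2 1.42.0, limma-voom (limma 3.58.1), each tumour left out, knockdown 7 and 9 left out, mitochondrially encoded genes left out, the replicate number as a block, the 14 core enzymes as the glycolytic class, a prior count of 0.5, a pseudocount of 0.1 for Ezh2 and, chosen after seeing the data, only the 7 libraries with Xist above 5 CPM.

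The members, the lists and the tests were chosen with earlier results of these data known. All members are accounted for. Values in every group are printed for those past the threshold whose groups did not overlap, and for P4ha2. Ezh2, other members with values and marker genes were added for description. From each further pathway list the 3 genes with the smallest p in each direction past the threshold are named. Of the written symbols, Tigar and Adgre1 were not matched, and Adgre1 was present under its older symbol Emr1. Promoter windows are those of RefSeq (GRCm38.p6), were matched by symbol or synonym, and were found for 36 members. No coordinate was converted between builds.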

Additional observations from a re-analysis of the deposited data

Results flagged for a closer look

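Among the 9 knockdown tumours, 1 tumour stood apart from the others in 12 of 44 genes tested for this, by Dixon's criterion. The criterion sets the gap to the next tumour against the range of the group. It was applied to CPM without logs, whereas its nominal rate of 1 in 20 assumes normally distributed values. The share over all genes was not computed, so no comparison with chance can be drawn. In 11 of the 12 the tumour apart was knockdown 7, as the highest. It had 274 CPM of Slc2a1, 484 CPM of Gpi1, 142 CPM of Pfkp, 248 CPM of Ldhb and 89.5 CPM of Pdk1 among glycolytic members. Among the others it had 165 CPM of Bnip3, 132 CPM of Egln1, 212 CPM of Egln3, 407 CPM of Ndrg1, 67.4 CPM of Adm and 295 CPM of Ero1l. In the 12th gene, Car12, knockdown 9 stood apart at 140 CPM. The genes share the tumour, so these are not 11 independent events.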

How the results depend on the processing

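The count of 26 members that fell lay between 24 and 30 with RLE factors, no filter, DESeq2, limma-voom and without knockdown 7 and 9. It also did so without mitochondrially encoded genes and in the 7 libraries with Xist above 5 CPM. In these fits between 7.56% (no filter) and 17.4% (without knockdown 7 and 9) of all genes fell. In any fit 0 members were called higher. Leaving out 1 tumour at a time gave 1 to 30 members lower (0 to 17 glycolytic, 1 to 13 others), 1290 to 4269 of all genes called against 3790, 903 to 2418 lower against 2116, and a median over the members of -1.28 to -0.71. Leaving out single knockdown tumours cost calls among Slc2a1, Ldha, Bnip3, Ankrd37 and Adm. The low ends of the counts came without control 1, and the lowest median (-1.28) without control 2. Deviations from the group mean had a correlation of -0.14 between the tumours of pair 1 and 0.02 between those of pair 2. With only 2 controls, the deviations of controls 1 and 2 mirror each other, so both values rest on the same contrast. Whether the numbers pair the tumours was therefore not settled. With the replicate block, which keeps knockdown 1 and 2 and both controls and has 1 residual degree of freedom, 734 genes were called, 398 lower, with 8 members lower (3 glycolytic, 5 others) and a median of -1.73. A count of 3 corresponds to at most 0.273 CPM, below the lowest level of any member in any tumour (1.36 CPM, Car12).

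Signs turned in 6 genes, each close to 0 or split between the controls. Without 1 tumour at a time the log2 fold change of Ldhb lay between -0.052 (without control 1) and 2.08, of Bnip3l between -0.33 and 0.17 (without control 1), of Eno3 between -2.22 and 0.13 (without control 2), of Slc16a1 between -0.28 (without control 2) and 0.44, of Plod1 between -0.14 (without knockdown 7) and 0.12, and of Epas1 between -0.10 (without control 2) and 0.33. Without knockdown 7 and 9, Slc16a1 had -0.0063, Plod1 -0.27 and Epas1 -0.035. With the replicate block Slc16a1 had -0.13 and Plod1 -0.19. Plod1 had -0.043 with limma-voom, and in the 7 libraries with Xist above 5 CPM Plod1 had -0.24 and Epas1 -0.11. The cause was not tested.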
